A study of Homo sapiens with 9 samples.

Results

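WNT feedback targets, genes that the WNT pathway switches on and that in turn act on the pathway, were followed in human extra-embryoids (hEEs), aggregates of human pluripotent stem cells that form an inner epiblast-like and an outer hypoblast-like compartment. The members were *AXIN2*, *NKD1*, *RNF43*, *ZNRF3*, *LGR5*, *LEF1*, *TCF7* and *SP5*, listed by name, and all 8 were found among the 36601 genes of the deposited tables. Their UMIs (unique molecular identifiers, each standing for 1 captured RNA molecule) were counted in hEEs of day 4 (D4) and day 6 (D6). The cells were of the wild-type human embryonic stem cell line ESI017, held in extended pluripotent culture on CF-1 mouse feeders in a medium that contains IWR-1, an inhibitor of WNT signalling. They were then aggregated in AggreWell plates in a medium for spontaneous differentiation, which held a ROCK inhibitor on the first day. The medium was later changed to mIVC2, and no further treatment is described for these libraries. Each day was 1 library, made from aggregates of 2 cultures that had been picked for an inner and an outer compartment and then pooled. The outer layer took longer to dissociate than the inner cells. The library and the day can therefore not be told apart, and shares of cells depend on the picking and the dissociation.

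WNT ligands bind Frizzled and LRP receptors at the cell surface, which stops the destruction complex from degrading β-catenin, so that β-catenin enters the nucleus and acts with TCF/LEF proteins on target genes. Many of the most general targets are feedback regulators of the pathway, and their RNA is widely used as a readout of canonical WNT activity. In the mammalian embryo canonical WNT signalling is known for its part in forming the primitive streak, which *TBXT* and *MIXL1* mark, and for its antagonism by the anterior part of the hypoblast.

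Cells were grouped by UMIs per cell of marker genes. The embryonic gate took cells with at least 5 *POU5F1*, at least 1 *SOX2* and at most 2 *FN1* UMIs, and the hypoblast gate took cells with at least 3 *FN1*, no *SOX2* and at most 5 *POU5F1* UMIs. Embryonic gate cells in which *TBXT* and *MIXL1* UMIs summed to at least 1 are called TBXT/MIXL1-positive, and the rest negative. At D4 the embryonic gate held 3716 of 9151 kept cells, of which 98 were TBXT/MIXL1-positive, and the hypoblast gate held 4061. At D6 the embryonic gate held 5054 of 10097 kept cells, of which 152 were positive, and the hypoblast gate held 3567. Most positive cells were so through *MIXL1*: at D4 91 had only *MIXL1* UMIs, 6 only *TBXT* and 1 both, and at D6 the numbers were 127, 16 and 9.

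The kept cells held 124234102 UMIs at D4 and 136746727 at D6, with medians of 12717 and 12960 UMIs per cell, and 40 cell barcodes occurred in both libraries. Median depth was 15157.5 and 14225.5 UMIs in the embryonic gate and 11012 and 10902 in the hypoblast gate. The gates carried the markers of their names: all 13 hypoblast markers were higher in the hypoblast gate on both days, and their summed level was 9.65-fold that of the embryonic gate at D4 and 22.7-fold at D6. The summed level of 9 epiblast markers in the hypoblast gate was 0.471 of that in the embryonic gate at D4 and 0.624 at D6. Levels are CPM, UMIs of a gene per 1000000 UMIs of all genes, summed over the cells of a group. The 8 amnion markers summed to 285 CPM in the hypoblast gate and 22.9 in the embryonic gate at D4, and to 252 and 34.1 at D6, with 2 of the 8 at 0 in both gates. *GATA3*, which is also known from other lineages, carried most of the sum in the hypoblast gate (223 CPM at D4 and 222 at D6), and only 4 of the 8 at D4 and 3 at D6 were higher there. *TFAP2A*, the amnion marker by which a group of cells is taken in what follows, was lower there, at 0.544 against 7.73 CPM at D4 and 0.455 against 20.04 at D6.

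A promoter sequence was at hand for 4 of the 8 members (*SP5*, *LEF1*, *TCF7* and *RNF43*), as 6 RefSeq windows of GRCh38.p14 that run from 250 bases before to 50 bases after a transcript start. They were searched on both strands for the TCF/LEF motifs CTTTGAT and CTTTGAA, which differ in their last letter, so that 1 position cannot match both on 1 strand. *SP5* alone of the 4 held either motif, and it held 3 copies, whereas the windows of *LEF1*, *TCF7* and *RNF43* held none of these letters. Of all 35116 promoter windows, 6.86% held at least 1 copy and 9, or 0.0256%, held 3 or more. The stretch with the 3 copies lies upstream of *SP5* on the plus strand, at chr2:170715179-170715269, from 158 to 68 bases before the start. It is shown because *SP5* had the most UMIs of the 8 and is the gene on which most results turn. The capitals mark the motif, read on the plus strand in the middle copy and on the minus strand in the outer copies. A match of letters is a description and says nothing of whether TCF proteins bind there.
SP5 upstream stretch: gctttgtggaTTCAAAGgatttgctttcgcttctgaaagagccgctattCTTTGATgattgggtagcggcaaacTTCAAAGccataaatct

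The first question was in which lineage the feedback targets were found. The intervals in brackets are exact 95% intervals and cover counting error only. With 1 library a day there were no replicates, and no test was made. Because the assay captures the 3′ ends of transcripts, levels were compared within a gene and not between genes. *SP5*, *LGR5*, *NKD1* and *LEF1*, 4 of the 8 members, were at least 2-fold higher in the hypoblast gate on both days, and *AXIN2*, *ZNRF3*, *TCF7* and *RNF43* were within 2-fold between the gates. Across all genes, 14.9% of 19684 measured at D4 and 14.4% of 19798 at D6 were as much higher in the hypoblast gate. The median log2 ratio of the 8 members was 1.44 at D4 and 1.25 at D6, against -0.05 and -0.17 over all genes.

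*AXIN2* encodes a scaffold of the destruction complex and is a classical negative-feedback target. Its level was 9.47 (8.62 to 10.4) CPM in the hypoblast gate and 12.2 in the embryonic gate at D4, and 13.3 (12.2 to 14.4) and 15.0 at D6. The log2 ratio of hypoblast over embryonic was -0.36 (-0.53 to -0.19) at D4 and -0.18 (-0.33 to -0.03) at D6. The gene was thus slightly lower in the outer lineage on both days, at D6 by about as much as the median of all genes (-0.17). *NKD1*, whose product binds Dishevelled and dampens the signal, was by contrast mostly a hypoblast gate transcript. It stood at 19.9 (18.7 to 21.2) CPM there and at 1.73 in negative embryonic cells at D4, and at 17.0 (15.8 to 18.3) and 2.38 at D6. The log2 ratio of hypoblast over embryonic gate was 3.50 (3.20 to 3.80) at D4 and 2.79 (2.56 to 3.03) at D6.

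*RNF43* and *ZNRF3* encode related membrane E3 ubiquitin ligases that remove Frizzled from the cell surface. *ZNRF3* lay close to level across the lineages, at 11.6 CPM in the hypoblast gate and 14.2 in negative embryonic cells at D4, and at 12.5 and 14.8 at D6. *RNF43* had few UMIs, with 3.51 CPM in the hypoblast gate and 1.98 in negative embryonic cells at D4, and 3.69 and 2.46 at D6. The pair differed in direction, with hypoblast over embryonic log2 ratios of -0.29 (-0.45 to -0.13) and -0.25 (-0.40 to -0.10) for *ZNRF3* and of 0.85 (0.49 to 1.20) and 0.60 (0.28 to 0.92) for *RNF43*. At D6 the *ZNRF3* interval holds the median of all genes, -0.17. *LGR5*, a receptor for R-spondins, which keep those ligases away from Frizzled, showed the widest gap of the 8. It had 26.9 (25.4 to 28.4) CPM in the hypoblast gate at D4 and 57.1 (54.9 to 59.5) at D6, against 0.464 and 0.692 in negative embryonic cells. The hypoblast gate held 80.9% of all its UMIs in kept cells at D4 and 80.0% at D6, against 38.5% and 30.5% of the UMIs of all genes.

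Of the transcription factors, *LEF1* and *TCF7* encode HMG-box partners of β-catenin. *LEF1* was scarce throughout, at 1.53 (1.20 to 1.92) CPM in the hypoblast gate and 0.375 in negative embryonic cells at D4, and at 2.25 (1.82 to 2.75) and 0.498 at D6. *TCF7* was found in both lineages, with 23.3 CPM in the hypoblast gate and 15.8 in negative embryonic cells at D4, and 21.8 and 17.4 at D6. *SP5* encodes a zinc-finger repressor that is a direct target in many tissues. It stood at 147 (143 to 150) CPM in the hypoblast gate at D4 and 159 (156 to 163) at D6, and at 4.85 (4.29 to 5.46) and 5.77 (5.23 to 6.35) in negative embryonic cells. The hypoblast gate was 27.7-fold above the embryonic gate at D4 and 22.9-fold at D6.

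**Figure D1:**
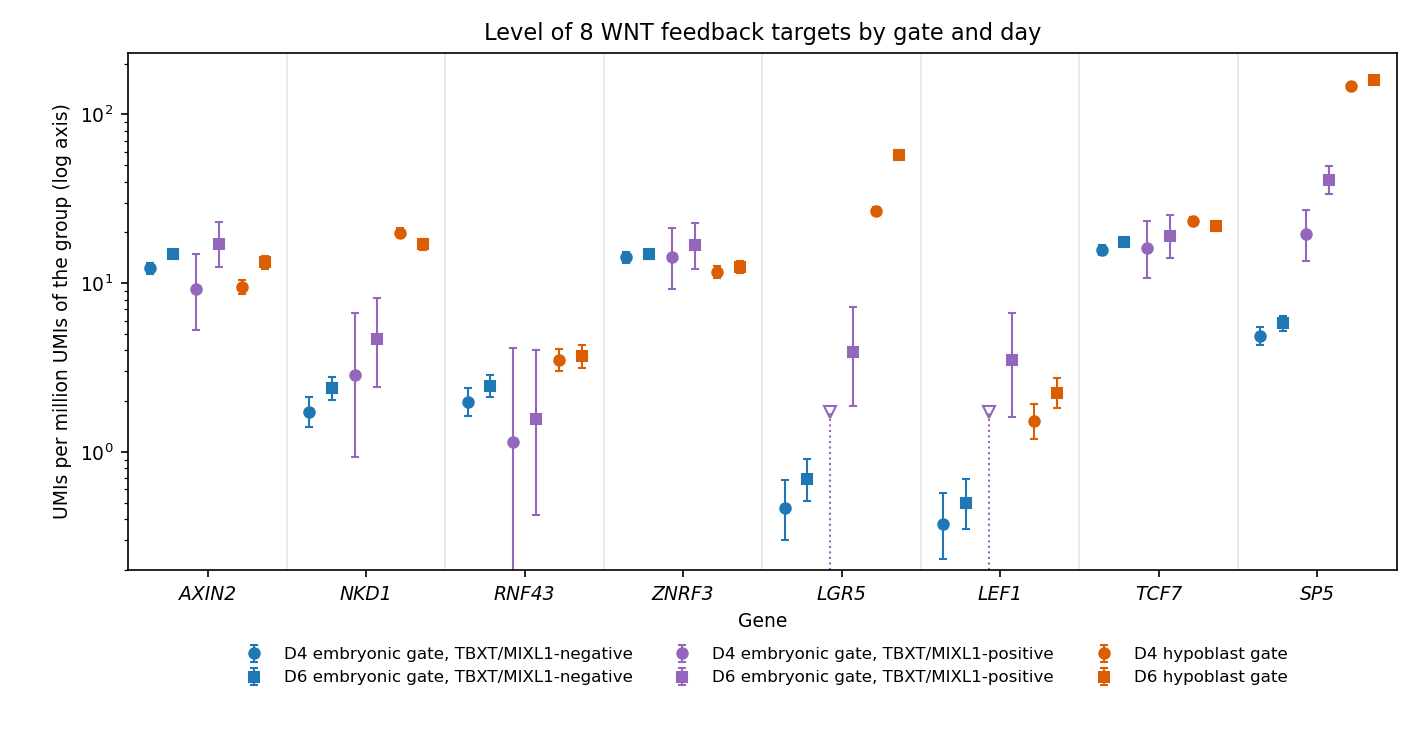
Level of each gene (CPM, log axis) in negative and TBXT/MIXL1-positive embryonic gate cells and in the hypoblast gate at D4 (circles) and D6 (squares). Bars are exact 95% Poisson intervals for counting error, and an open triangle is the level of 3 counts, the limit where no UMI was found; *SP5* rises from 4.85 to 147 CPM between negative embryonic cells and the hypoblast gate at D4, whereas *AXIN2* and *ZNRF3* stay between 9.19 and 17.2.

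The share of cells with a UMI gave the same order of groups for *SP5*, but at D4 thinned positive and negative cells were not set apart. After every cell had been thinned to 3430 UMIs, *SP5* was found in 37.8% of hypoblast gate, 3.06% of positive and 1.74% of negative embryonic cells at D4, and in 39.8%, 10.5% and 2.06% at D6. The thinned share of positive cells at D4 rested on 3 of 98 cells, and its interval (0.636% to 8.69%) holds the share of negative cells. Without thinning the shares were 72.4%, 19.4% and 6.33% at D4 and 74.7%, 26.3% and 6.79% at D6. Positive cells had the higher median depth, with 17857.5 against 15100 UMIs in negative cells at D4 and 16095.5 against 14182 at D6. *LGR5* was found in 8.05% of thinned hypoblast gate cells at D4 and 16.8% at D6 (23.9% and 42.3% unthinned), against 0.0829% and 0.184% of thinned negative embryonic cells (0.691% and 0.959% unthinned).

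Free RNA from lysed cells can place UMIs of an outer-layer gene in inner-layer cells, so the level of each member in negative embryonic cells was set against its level in the hypoblast gate, beside the same percentage for the 13 hypoblast markers. For *LGR5* the percentage was 1.73% (1.12 to 2.54) at D4 and 1.21% (0.896 to 1.60) at D6, and the median of the markers was 1.94% and 0.996%. The markers ran from 1.16% to 69.4% at D4 and from 0.304% to 13.4% at D6. Doublet calls held 3 of the 26 *LGR5* UMIs of negative cells at D4 and 8 of the 50 at D6, and the part of free RNA in the rest was not tested, so expression of *LGR5* in these cells is not read from them. *SP5* stood at 3.31% (2.92 to 3.73) at D4 and 3.62% (3.27 to 4.00) at D6, above 9 of the 13 markers on both days and below the other 4 (*COL4A1*, *SOX17*, *APOE* and *PDGFRA*). *NKD1* stood at 8.70% and 14.0%, *LEF1* at 24.5% and 22.1%, and the other 4 members between 56.4% and 129%. Doublet calls held 43 of the 272 *SP5* UMIs of negative cells at D4 and 23 of the 417 at D6. The level in these doublet calls was 44.8 CPM at D4 and 16.1 at D6, against 4.16 and 5.56 in the other negative cells. How much of the *SP5* signal in negative embryonic cells came from free RNA was not tested.

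**Figure D2:**
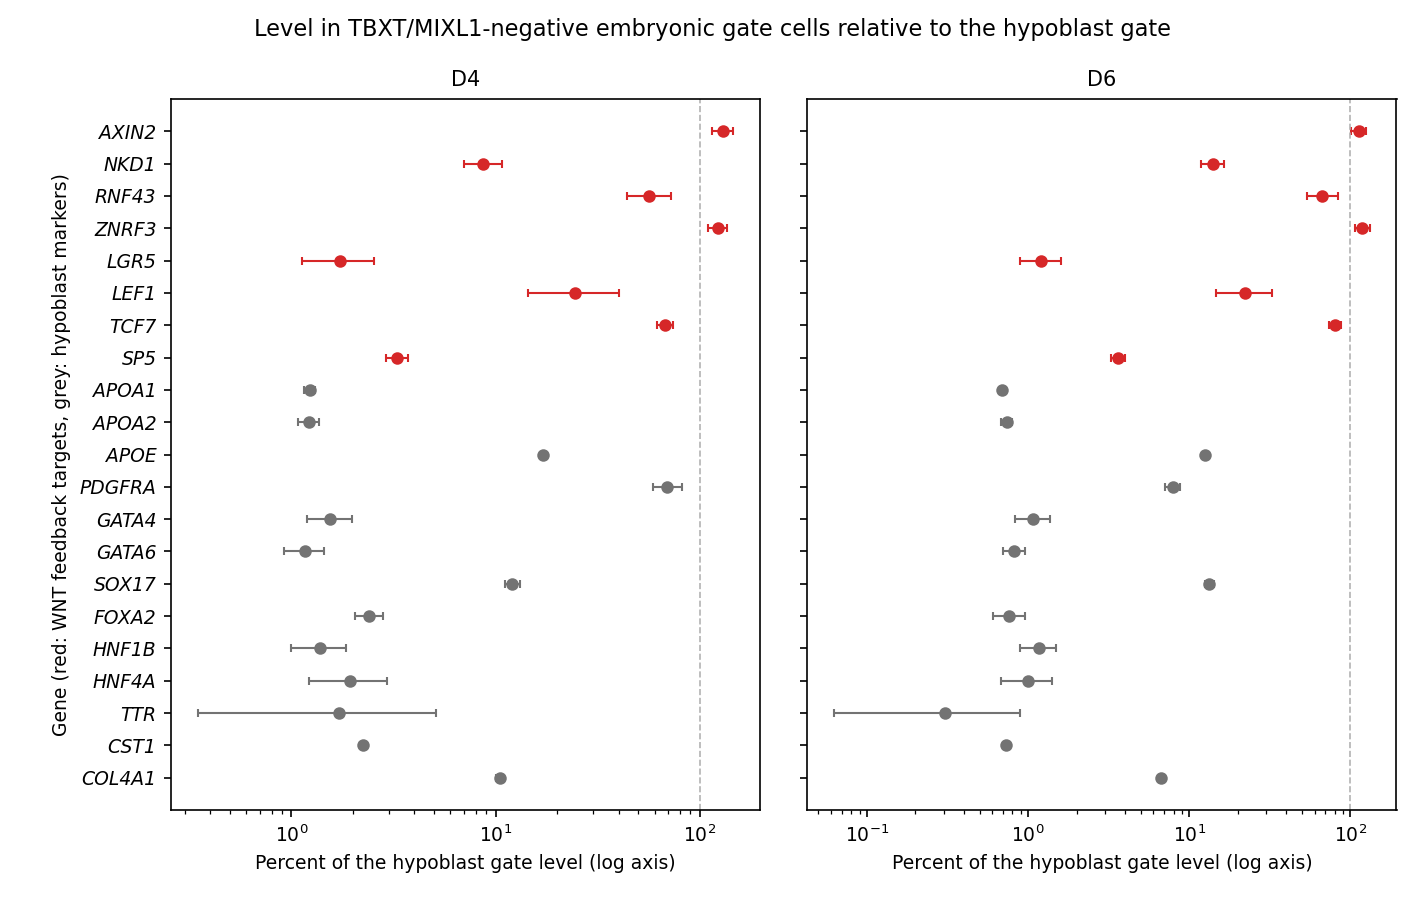
Level of the 8 members (red) and of 13 hypoblast markers (grey) in TBXT/MIXL1-negative embryonic gate cells, as a percentage of the level in the hypoblast gate (log axis), at D4 and D6 with 95% intervals for counting error. *LGR5* lies near the marker median on both days (1.73% against 1.94% and 1.21% against 0.996%), *SP5* lies at 3.31% and 3.62%, and *AXIN2* and *ZNRF3* lie beyond the dashed line at 100%.

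The next question was whether the feedback targets were higher in the embryonic gate cells that carry streak markers. *SP5* was the only member with a large difference on both days. At least 2-fold higher in positive than in negative cells were 1 of the 4 members measured at D4 (*SP5*) and 2 of the 6 measured at D6 (*SP5* and, at the edge, *NKD1*), where measured means at least 5 UMIs expected in the smaller group. Among all genes measured, 0.605% of 11733 at D4 and 0.844% of 12920 at D6 were as much higher. *SP5* had 34 UMIs in the 98 positive cells of D4, or 19.5 (13.5 to 27.3) CPM, and 105 in the 152 positive cells of D6, or 41.0 (33.5 to 49.6) CPM. The log2 ratio over negative cells was 2.01 (1.45 to 2.53) at D4 and 2.83 (2.51 to 3.14) at D6. The *SP5* level of positive cells stayed below that of the hypoblast gate, by a log2 ratio of -2.91 (-3.44 to -2.43) at D4 and -1.96 (-2.25 to -1.68) at D6.

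*AXIN2* was nearer to level between positive and negative cells. It had 9.19 (5.25 to 14.9) CPM in positive and 12.3 in negative cells at D4, and 17.2 (12.5 to 23.1) and 14.9 at D6. Its log2 ratios of -0.42 (-1.23 to 0.29) and 0.20 (-0.26 to 0.64) have intervals that leave out a 2-fold rise on both days. The same holds for *TCF7*, with 0.03 (-0.57 to 0.57) and 0.13 (-0.31 to 0.54), and for *ZNRF3*, with 0.01 (-0.62 to 0.59) and 0.18 (-0.29 to 0.62). *RNF43* rested on 2 and 4 UMIs in positive cells, with log2 ratios of -0.79 (-3.85 to 1.10) and -0.66 (-2.55 to 0.72), intervals that hold both a fall and, at D4, a 2-fold rise. Under 1 other choice of cells *AXIN2* at D6 went past 2-fold, with 1.14 (0.51 to 1.71) among cells whose hypoblast marker UMIs were at or below the median of the gate, where at D4 it was -0.46 (-2.35 to 0.91).

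*NKD1*, *LEF1* and *LGR5* were higher at D6 on few UMIs. *NKD1* had 12 UMIs in positive cells and a log2 ratio of 0.98 (-0.00 to 1.82), which reaches 2-fold only with the 0.5 UMI added to each side for the count above. *LEF1* had 9 UMIs in 7 positive cells, or 3.51 (1.61 to 6.67) CPM against 0.498 in negative cells, with a log2 ratio of 2.82 (1.58 to 3.90). *LGR5* had 10 UMIs in 10 positive cells, or 3.90 (1.87 to 7.18) CPM against 0.692. At D4 no UMI of *LEF1* or *LGR5* was found in the 98 positive cells, which allows a level of up to 1.72 CPM (3 counts of their total), and *NKD1* had 5 UMIs there.

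Levels of endoderm markers also differed between positive and negative cells. In positive cells 12 of the 13 hypoblast markers were higher than in negative cells on both days. Their summed level was 1471 against 1100 CPM at D4 (1.34-fold) and 2116 against 1303 at D6 (1.62-fold). *APOE* carried most of it, at 1159 against 952 CPM at D4 and 1405 against 1096 at D6. Single markers differed by more or by less than the sum. *GATA6* was at 10.9 against 1.41 CPM at D4 and 16.4 against 2.44 at D6. *APOA2* was at 24.1 against 5.14 and 53.1 against 8.68, but *SOX17* at 13.2 against 11.2 and 17.2 against 13.6. *TTR* was at 0 in positive cells at D4, and *HNF4A* at D6. Summed levels of 6 anterior visceral endoderm markers were 2.63-fold and 2.95-fold, and those of 6 definitive endoderm markers 3.46-fold and 3.75-fold, those of negative cells. *CER1*, which is on both of these lists, was at 113 against 11.0 CPM at D4 and at 90.6 against 1.41 at D6. *OTX2* at D4 and *SHISA2* at D6 were lower in positive cells. The paper expects CER1 signal in cells with the *TBXT* protein as their mesoderm matures. Most positive cells here had no *TBXT* UMI, which does not show that they lacked the protein. Whether the paper's expectation covers these cells was not tested. Other genes of these lists were higher as well. *LEFTY1* was at 256 against 100 CPM at D4 and 51.9 against 8.34 at D6, and *CXCR4* at 16.7 against 3.37 and 11.7 against 3.04. The part of hypoblast RNA in these endoderm sums was not tested. Mesoderm markers, 8 genes, summed to 17.2 against 13.3 CPM at D4 and to 38.3 against 19.9 at D6. Only 3 of the 8 at D4 and 4 at D6 were higher in positive cells. At D4 *PDGFRA*, which is also on the hypoblast list, and *BMP4* carried most of the sum, at 6.89 CPM each. Blood markers, 6 genes, summed to 0.574 against 0.785 CPM at D4 and to 13.7 against 1.30 at D6. None of the 6 was higher at D4 and 5 were at D6, where *GYPB* made 10.9 of the 13.7 CPM. Scrublet, a tool that scores cells by their likeness to simulated pairs of cells, called 8 of the 98 positive cells of D4 doublets (8.16%) and 11 of the 152 of D6 (7.24%), against 1.33% and 1.51% of negative cells. At D6 these 11 cells held 7 of the 10 *LGR5* UMIs and 4 of the 12 *NKD1* UMIs of positive cells. Without doublet calls *NKD1* was at 3.44 CPM in positive and 2.41 in negative cells. Over 13 choices of cells and processing, the main one included, its log2 ratio at D6 ran from -0.06 to 1.75. Without doublet calls the *LGR5* log2 ratio at D6 was 1.12 (-1.21 to 2.77), and among cells with no *FN1* UMI it was -0.06 (-5.40 to 2.51), on 1 UMI. The part of hypoblast RNA in the *LGR5* and *NKD1* values was not tested beyond this.

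*SP5* at D6 was more than 4-fold higher in positive cells also under the narrower choices of cells that follow. Its log2 ratio was 2.70 (2.34 to 3.04) without doublet calls, 2.42 (1.93 to 2.88) among cells with no *FN1* UMI and 2.50 (1.88 to 3.08) among cells whose hypoblast marker UMIs were at or below the median of the gate. At D4 it was 1.98 (1.33 to 2.57) without doublet calls and 1.52 (0.54 to 2.36) with no *FN1* UMI, but 0.05 (-3.01 to 1.94) in the cells at or below the marker median. The D4 difference was thus not seen in the cells with fewer hypoblast marker UMIs, where the interval runs from a fall to a nearly 4-fold rise. *LEF1* at D6 was 2.80 (1.48 to 3.93) without doublet calls and 1.35 (-1.76 to 3.35) with no *FN1* UMI. The restriction to cells with few hypoblast marker UMIs was chosen after the data had been seen. It counted UMIs per cell without regard to depth, so it also favours cells of lower depth. *APOE* made 53378 of the 61661 marker UMIs of negative cells at D4 and 79207 of the 94173 at D6. The restriction therefore cannot set hypoblast RNA apart from depth and *APOE*. The part of hypoblast RNA in the *SP5* values was not tested.

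**Figure D3:**
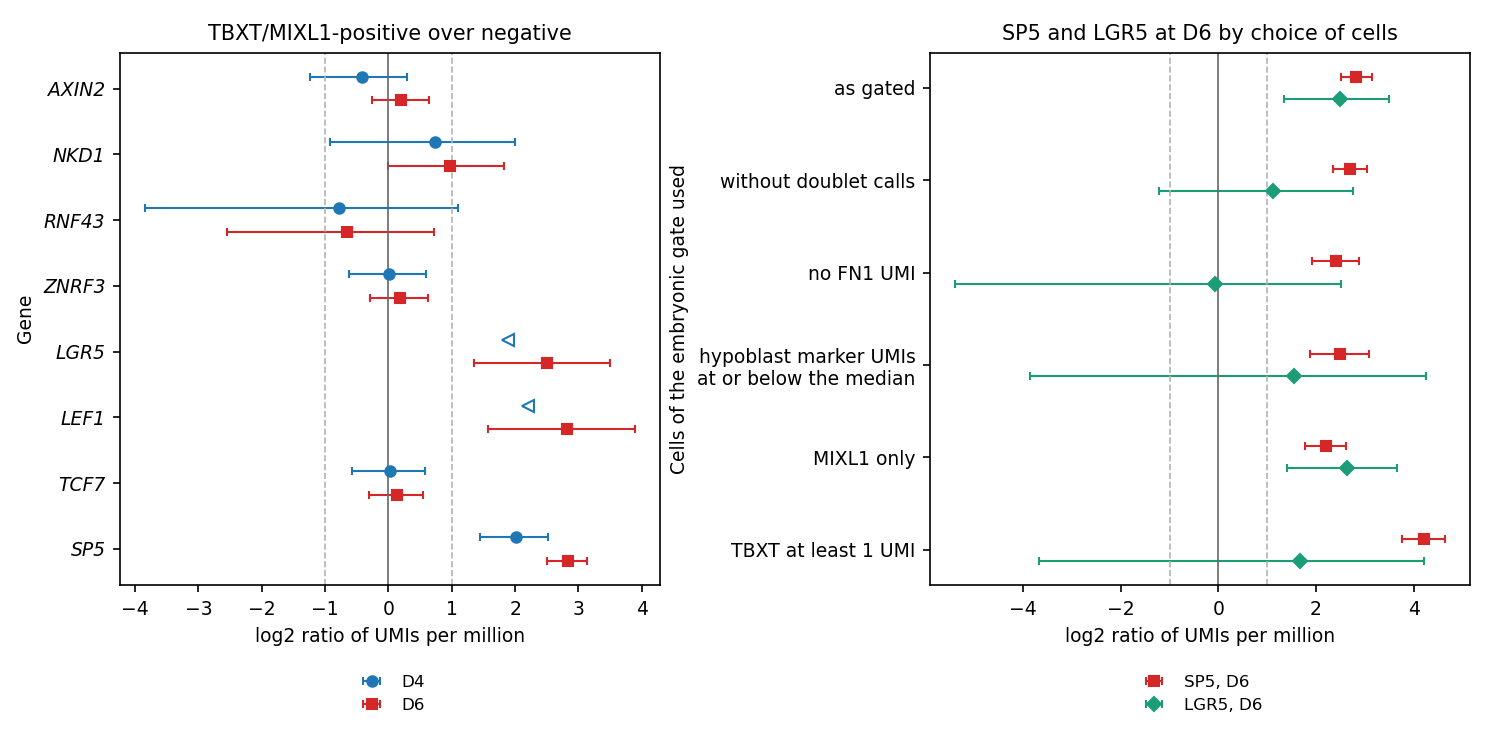
Left, log2 ratio of CPM in TBXT/MIXL1-positive over negative embryonic gate cells for each member at D4 and D6, with exact 95% intervals for counting error; open triangles are limits from 3 counts where positive cells had no UMI, and dashed lines mark 2-fold. Right, the *SP5* and *LGR5* ratios at D6 under other choices of cells: in the choices plotted *SP5* stays between 2.20 and 4.22, while *LGR5* drops from 2.50 to 1.12 without doublet calls and to -0.06 in cells with no *FN1* UMI.

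Within the embryonic gate *SP5* followed the number of streak marker UMIs. At D6 it had 5.77 CPM in cells with no *TBXT* or *MIXL1* UMI, 23.3 (17.2 to 30.8) in the 126 cells with 1, 55.4 (20.3 to 120) in the 7 cells with 2 and 131 (97.2 to 172) in the 19 cells with 3 or more. At D4 the levels were 4.85, 14.8 (9.37 to 22.2), 18.7 (2.27 to 67.6) and 114 (52.3 to 217), over 3618, 89, 5 and 4 cells. The last groups on both days are small, and their intervals overlap with those of the cells with 2 UMIs. The classes also differed in depth, with medians at D6 of 14182, 15563.5, 17449 and 21170 UMIs per cell. Their median mitochondrial shares at D6 were 1.92%, 2.30%, 1.54% and 3.50%. The part of depth, doublets and hypoblast RNA in these levels was not tested class by class. Cells with *TBXT* were higher than those with *MIXL1* alone: at D6 *SP5* had 26.6 (20.1 to 34.5) CPM in 127 *MIXL1*-only cells, 71.3 (43.6 to 110) in 16 *TBXT*-only cells and 166 (111 to 239) in the 9 cells with both. *TCF7* was at 14.7 (10.0 to 20.9), 35.7 (17.1 to 65.6) and 45.9 (19.8 to 90.4) in the same cells, against 17.4 in negative cells. In the 25 cells with *TBXT* its log2 ratio over cells without a *TBXT* or *MIXL1* UMI was 1.18 (0.42 to 1.85), where over all positive cells it was 0.13. In the 19 cells of D6 with 3 or more streak marker UMIs *AXIN2* was at 17.9 (7.21 to 36.9) CPM, *ZNRF3* at 20.5 (8.85 to 40.4) and *TCF7* at 46.1 (27.3 to 72.9), while *NKD1*, *LEF1*, *LGR5* and *RNF43* had at most 4 UMIs each. *AXIN2* had 39.2 (19.6 to 70.2) CPM in *TBXT*-only cells of D6 and none in the 9 cells with both markers, where up to 17.2 CPM is allowed.

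A further group of the embryonic gate was taken by *TFAP2A*, an amnion marker, in cells without *TBXT* or *MIXL1*. With at least 2 *TFAP2A* UMIs there were 81 such cells at D4 and 341 at D6. *TFAP2A* itself made 152 of the 190 CPM of the 8 amnion markers in them at D4 and 228 of the 272 at D6. At D4, 4 of the 8 were at 0, *ISL1* and *GABRP* among them. At D6 *ISL1* was at 5.04 against 0.872 CPM in negative cells, *DLX5* at 6.85 against 0.761 and *GABRP* at 1.01 against 1.13. *GATA3* was higher on both days, at 24.6 against 7.72 and 22.8 against 4.69. An amnion fate of these cells was not tested. *TCF7* was at 24.6 (17.0 to 34.6) CPM in them at D4 and 24.2 (20.04 to 28.9) at D6, with log2 ratios over all negative cells, which include them, of 0.64 (0.10 to 1.15) and 0.47 (0.19 to 0.74). *SP5* was at 3.73 (1.21 to 8.71) and 8.66 (6.27 to 11.7) CPM in them, far below its level in positive cells of the same day. Its log2 ratios over all negative cells were -0.38 (-2.01 to 0.86) at D4 and 0.59 (0.10 to 1.04) at D6. *AXIN2* and *ZNRF3* had log2 ratios of 0.55 (-0.11 to 1.13) and 0.21 (-0.48 to 0.82) at D4 and of -0.25 (-0.65 to 0.12) and 0.19 (-0.15 to 0.51) at D6. At D6 *NKD1* had 0.61 (-0.18 to 1.31) and *RNF43* 0.20 (-0.70 to 0.98), and at D4 they rested on 3 UMIs and 1 UMI. *LEF1* had 3 UMIs in these cells at D4 and 1 at D6, and *LGR5* had 1 and 3.

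Between the days 0 of the 8 members were at least 2-fold higher at D6 in the embryonic gate and 1 (*LGR5*) in the hypoblast gate, where 4.44% of 20121 and 5.94% of 19038 genes were, shares so low that these counts are no result about the members. The median log2 ratio of the 8 was 0.35 in the embryonic gate, against 0.08 over all genes, and 0.11 in the hypoblast gate, against -0.01. *LGR5* went from 26.9 to 57.1 CPM in the hypoblast gate, a log2 ratio of 1.09 (0.99 to 1.19), and had 0.83 (0.15 to 1.56) in the embryonic gate, on 26 and 60 UMIs. *AXIN2* was higher at D6 in both gates, by 0.30 (0.16 to 0.44) in the embryonic and 0.49 (0.30 to 0.67) in the hypoblast gate. *SP5* differed by 0.40 (0.19 to 0.61) and 0.12 (0.07 to 0.17), and *ZNRF3* by 0.06 (-0.07 to 0.20) and 0.10 (-0.07 to 0.28). *LEF1* had 0.73 (-0.05 to 1.55) and 0.56 (0.10 to 1.02), *TCF7* 0.15 (0.03 to 0.27) and -0.10 (-0.23 to 0.03), and *RNF43* 0.31 (-0.03 to 0.67) and 0.07 (-0.26 to 0.39). *NKD1* was the member whose intervals lay on opposite sides of 0, with 0.48 (0.12 to 0.84) in the embryonic and -0.23 (-0.37 to -0.08) in the hypoblast gate. In positive cells the *SP5* level of D6 exceeded that of D4 by a log2 ratio of 1.07 (0.50 to 1.67). The positive groups differed in make-up, as 19 cells at D6 and 4 at D4 had 3 or more *TBXT* and *MIXL1* UMIs. *SP5* was at 131 and 114 CPM in those cells, and at 23.3 and 14.8 in cells with 1 such UMI. All differences between the days are differences between 2 libraries, in which the median mitochondrial share of kept cells was 3.79% at D4 and 2.01% at D6.

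**Figure D4:**
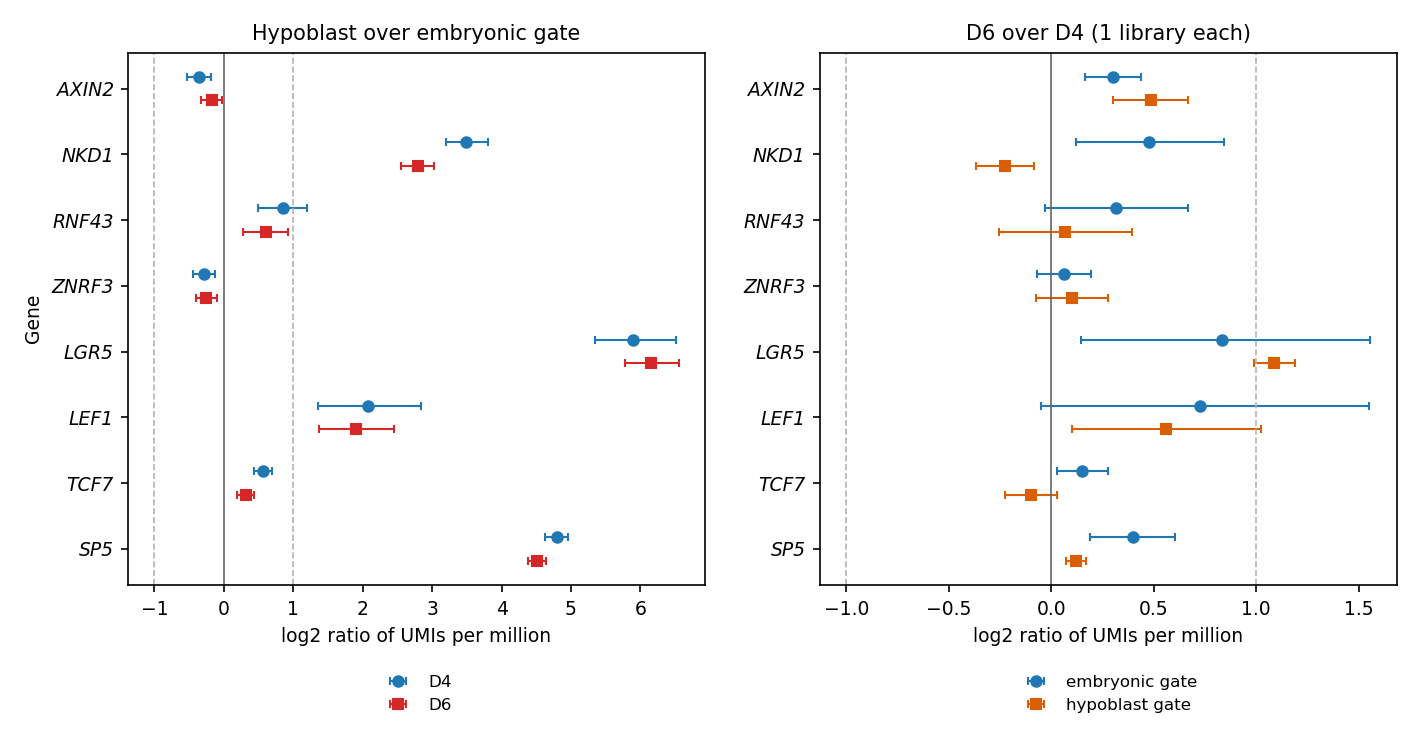
Log2 ratios of CPM for each member, left for the hypoblast over the embryonic gate at D4 and D6, right for D6 over D4 within each gate, with exact 95% intervals for counting error and dashed lines at 2-fold. *SP5*, *LGR5*, *NKD1* and *LEF1* lie beyond 2-fold on the left, and *LGR5* in the hypoblast gate (1.09) is the only point beyond it on the right.

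The hypoblast gate was not uniform in these genes. *CER1*, a secreted antagonist of WNT, NODAL and BMP ligands, is a known marker of anterior hypoblast, and 336 hypoblast gate cells of D4 and 59 of D6 had at least 5 of its UMIs. *SP5* was lower in them than in the other hypoblast gate cells, at 70.7 (63.1 to 78.9) against 155 CPM at D4 and 72.2 (56.2 to 91.4) against 161 at D6. *LGR5* was higher in them, at 46.6 (40.5 to 53.4) against 24.8 at D4 and 94.2 (75.7 to 116) against 56.3 at D6. *SP5* and *LGR5*, both mainly hypoblast gate transcripts, thus went opposite ways along *CER1* on both days. *NKD1* had no common direction, with 7.58 (5.25 to 10.6) against 21.2 at D4 and 30.4 (20.3 to 43.6) against 16.7 at D6. *LEF1* had 1 UMI in the *CER1* cells of D4 against 72 in the others, and none in those of D6. *AXIN2*, *TCF7* and *ZNRF3* differed by log2 ratios of -0.21 to 0.26, with intervals that hold 0. *RNF43* rested on 10 UMIs in the *CER1* cells of D4 and 2 in those of D6, with log2 ratios of -0.71 (-1.80 to 0.21) and -0.83 (-3.89 to 1.05). Scrublet called 2.08% of the *CER1* cells at D4 and 5.08% at D6 doublets, against 0.537% and 0.456% of the others, and the part of doublets in these values was not tested. At D6 the *CER1* cells also carried more RNA of other cell types, with mesoderm markers at 316 against 99.7 CPM (*HAND1* at 89.0 and *MESP1* at 87.9) and blood markers at 292 against 8.11 (mostly *GYPB*, at 256). Definitive endoderm markers summed to 2002 against 478, but *CER1*, the gene that defined the group, made 1496 of this in the *CER1* cells. The 13 hypoblast markers summed to 15562 in them against 30505, and at D4 to 9522 against 10849. At D4 mesoderm markers were at 24.1 against 23.2 and blood markers at 9.81 against 3.69. The part of these cells in the D6 values, the higher *NKD1* among them, was not tested.

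A small group outside both gates had *LEF1* and *NKD1* at higher levels than either gate, on 10 and 37 UMIs. By the filter of 5 expected UMIs *LEF1* was not measured against either gate, nor *NKD1* against the embryonic gate. Cells with at least 3 UMIs of *HAND1*, a mesoderm and extra-embryonic transcription factor, numbered 59 at D6 and 3 at D4, and only those of D6 are described. The 8 mesoderm markers, which include *HAND1*, summed to 1094 CPM in them and 60.5 in the other D6 cells outside the gates, and the 13 hypoblast markers to 2929 and 13896. Blood markers summed to 411 and 23.3 CPM (*GYPB* to 358 in the *HAND1* cells), anterior visceral endoderm markers to 646 and 302, and definitive endoderm markers to 628 and 315, where *CER1*, on both lists, was at 568 in the *HAND1* cells. The part of these cell types in the values was not tested. *LEF1* was at 13.0 (6.24 to 23.9) CPM in the *HAND1* cells, from 10 UMIs in 9 cells, against 2.25 in the hypoblast gate, a log2 ratio of 2.53 (1.42 to 3.47). *NKD1* was at 48.1 (33.9 to 66.3) against 17.0, or 2.83-fold. *LGR5* was at 58.5 (42.7 to 78.3) and near the 57.1 of the hypoblast gate, and *SP5* at 63.7 (47.1 to 84.3) was below its 159. *AXIN2* (10.4), *TCF7* (20.8), *ZNRF3* (16.9) and *RNF43* (6.50 CPM, from 5 UMIs) had intervals of the ratio to the hypoblast gate that hold 0. Of the 59 cells 1 was called a doublet. Of the other 1417 D6 cells in neither gate 23.1% were doublet calls.

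**Figure D5:**
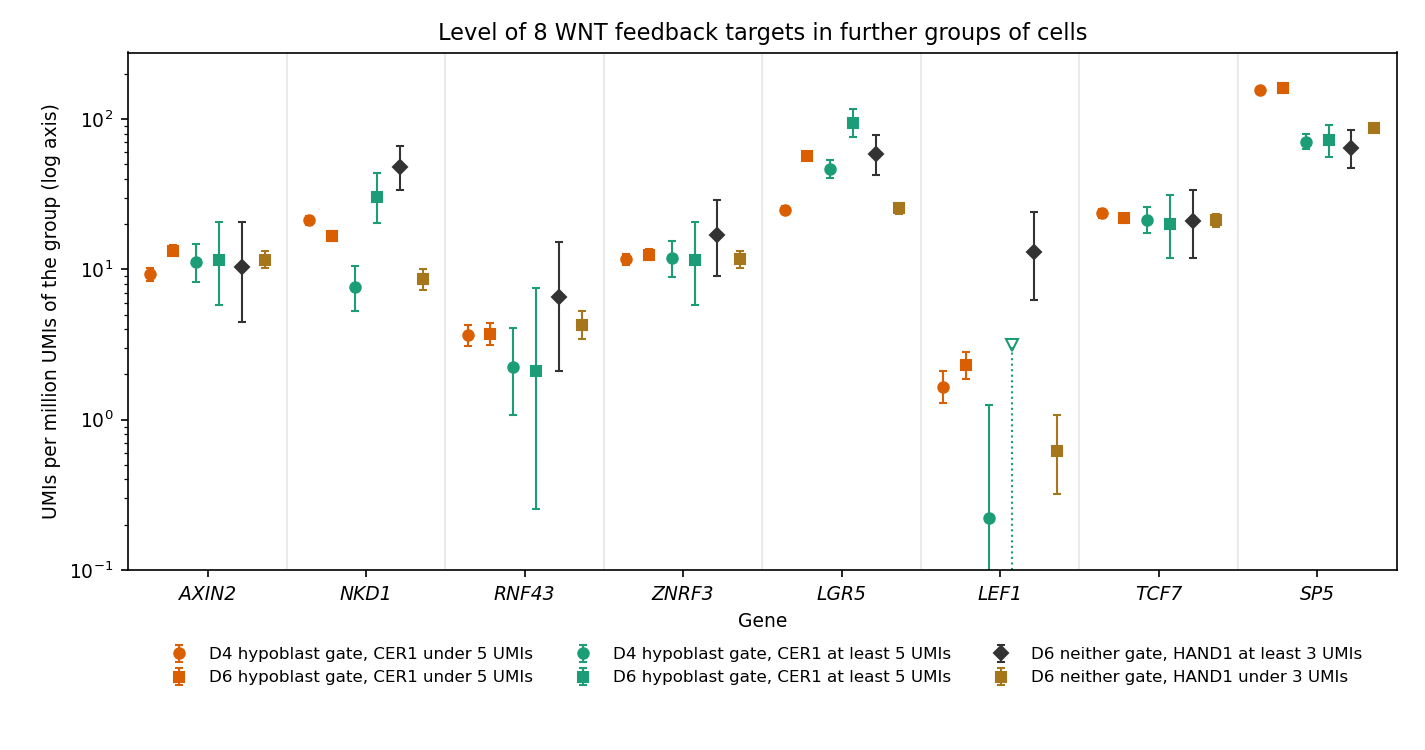
Level of each member (CPM, log axis) in hypoblast gate cells with fewer or at least 5 *CER1* UMIs at D4 and D6 and in D6 cells of neither gate with fewer or at least 3 *HAND1* UMIs; bars are exact 95% Poisson intervals and the open triangle is the level of 3 counts, where no UMI was found. *SP5* is lower (70.7 against 155 at D4) and *LGR5* higher (46.6 against 24.8) in *CER1* cells, and *LEF1* is at 13.0 in *HAND1* cells.

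Members differed in how their UMIs lay over cells. In the hypoblast gate the median cell had 1 *SP5* UMI on both days and the highest 12 at D4 and 17 at D6, and 46.5% and 48.8% of cells had at least 2. *LGR5* had at least 2 UMIs in 5.81% of hypoblast gate cells at D4 and 16.6% at D6, with a highest count of 6 and 7. *LEF1* was uneven at D6: 9 cells with at least 2 UMIs held 47 of its 94 UMIs in the hypoblast gate, and 1 cell held 11. At D4 its highest count there was 2, and 3 cells had it. In positive cells of D6, 24 cells with at least 2 *SP5* UMIs held 89 of the 105 UMIs, or 84.8%, and 112 of the 152 cells had none. *AXIN2* had a highest count of 5 in negative embryonic cells at D4 and 3 at D6, and its variance over cells was 1.09 and 1.10 times its mean there, near the value of 1 that pure counting noise gives.

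Few cells showed several members at once. After thinning, at least 2 of the 8 members were found in 12.0% of hypoblast gate cells at D4 and 17.2% at D6, in 1.16% and 1.37% of negative embryonic cells, and in 5.26% of positive cells at D6. None of the 98 positive cells of D4 had 2, which allows a share of up to 3.06%. At most 5 members were found in 1 cell. *NKD1* and *LGR5* were found together in 32 hypoblast gate cells at D4, where the product of their shares gives 19.5, and in 51 at D6, where it gives 30.8. *SP5* and *LGR5* were together in 118 cells at D4 and 235 at D6, where the products give 124 and 238. *SP5* and *NKD1* were together in 108 and 95 cells, where the products give 91.5 and 73.3. These counts come from cells of 1 library each and are given as a description.

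The rest of the pathway was read from lists of genes. For 12 genes of the destruction complex and the β-catenin step, all 12 were measured, and none differed by 2-fold between the gates or between positive and negative cells on either day. *CTNNB1*, which encodes β-catenin, had a hypoblast over embryonic log2 ratio of 0.24 (0.19 to 0.29) at D4 and 0.51 (0.46 to 0.56) at D6. Among 10 TCF partners and co-regulators, *PYGO1* and *TLE2* were 2-fold higher and *TCF7L1* 2-fold lower in the hypoblast gate on both days. Of all genes 14.9% at D4 and 14.4% at D6 were as much higher there, and 15.7% and 20.9% as much lower. The counts of the TCF partners lie near these shares. *TCF7L1*, which mainly represses WNT targets in pluripotent cells, had 67.9 CPM in the hypoblast gate and 159 in the embryonic gate at D4, and 72.5 and 160 at D6. *TCF7L2* was within 2-fold, with log2 ratios of -0.16 and -0.39.

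Receptors and R-spondins were found on both sides, where 15.7% of all genes at D4 and 20.9% at D6 were 2-fold lower in the hypoblast gate. As much higher there were 14.9% and 14.4% of all genes. Of 16 measured at D4, 5 were 2-fold higher and 4 lower in the hypoblast gate, and of 17 at D6, 5 were higher and 6 lower. *FZD5*, a Frizzled receptor, had 323 CPM in the hypoblast gate and 40.7 in the embryonic gate at D4, and 623 and 41.7 at D6. *RSPO3*, a ligand of *LGR5*, had 68.8 and 0.692 at D4 and 443 and 2.75 at D6, so that ligand and receptor were higher on the same side. Of the WNT ligands, 10 were measured at D4 and 11 at D6, and *WNT3*, *WNT9B* and *WNT11* were 2-fold higher in the hypoblast gate on both days, while *WNT10B* on both days and *WNT3A* at D4 were lower. *WNT3*, the ligand tied to streak formation, had 13.0 CPM in the hypoblast gate and 2.77 in the embryonic gate at D4, and 12.9 and 1.32 at D6.

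Secreted antagonists were higher in either gate. Of 12 measured at D4, 6 were 2-fold higher and 3 lower in the hypoblast gate, and of 11 at D6, 6 were higher and 2 lower. These counts, and those of the WNT-responsive genes below, stand beside 14.9% and 14.4% of all genes higher and 15.7% and 20.9% lower. *SFRP2* was an embryonic gate gene, with 603 CPM there and 9.28 in the hypoblast gate at D4, and 436 and 6.39 at D6. *FRZB* had 170 CPM in the hypoblast gate and 5.78 in the embryonic gate at D4, and 147 and 4.49 at D6. *SFRP1* was within 2-fold, with 633 and 424 at D4 and 451 and 303 at D6. Of 22 measured genes among 23 other WNT-responsive genes, 12 were 2-fold higher and 7 lower in the hypoblast gate at D4, and 12 and 5 at D6. *MSX2* had 51.6 CPM in the hypoblast gate against 4.26 at D4 and *BAMBI* 153 against 65.2, whereas *CCND1* had 47.2 against 232. The median log2 ratio of the list was 1.20 at D4 and 2.02 at D6, toward the hypoblast gate, against -0.05 and -0.17 over all genes.

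Positive and negative embryonic cells were compared over the same lists, beside the 0.605% and 0.844% of all genes that were 2-fold higher. None of 8 measured WNT-responsive genes at D4 and none of 11 at D6 was 2-fold higher, and the median log2 ratios of these were 0.06 and 0.36, beside 0.00 and 0.02 over all genes. Of 10 receptors and R-spondins measured at D4, 2 (*FZD4* and *FZD5*) were 2-fold higher, and of 14 at D6, 1 (*RSPO3*). Of the antagonists, *FRZB* and *CER1* were, 2 of 5 measured at D4 and 2 of 7 at D6. Of 18 streak and mesoderm genes, 6 were measured at D4 and 8 at D6, and *EOMES* and *NODAL* were 2-fold higher on both days, with *SNAI1* at D4 and *LHX1* at D6. *EOMES*, *NODAL*, *LHX1*, *FZD4*, *FZD5*, *RSPO3*, *FRZB* and *CER1* were also 2-fold higher in the hypoblast gate on both days, and *SNAI1* was not among them. Of the streak and mesoderm list, 11 of 17 measured at D4 and 12 of 16 at D6 were higher in that gate, beside 14.9% and 14.4% of all genes. On each day 2 were lower there. The part of hypoblast RNA and doublets in these values was not tested. *EOMES*, a streak and endoderm transcription factor, was at 19.0 CPM in positive cells and 5.05 in negative cells at D4, and at 26.2 and 3.06 at D6. *WNT3* was below the filter, with 28 UMIs in positive cells of D6 (10.9 CPM) and 71 in negative cells (0.982), and is named after its values were seen. The genes named from these lists other than the 3 with most UMIs of each were chosen in the same way.

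Genes whose levels over 8 groups (positive, negative, hypoblast gate and neither gate on each day) lay nearest to each member were found by the distance of centred log2 values among 15022 genes. For *SP5* they were *PLSCR2*, *GSC* and *EOMES*, with Pearson's r from 0.986 to 0.989 on the log2 scale. For *LGR5* they were *PAX6*, *LINC00379* and *IHH*, and for *NKD1* *MANEA-DT*, *LAMA1* and *OVOL2*, with r from 0.990 to 0.999. For *AXIN2* they were *TRIM34*, *PREPL* and *ZNF562*, and for *ZNRF3* *INPP5A*, *SMARCD1* and *RAD52*. For *TCF7* they were *ATOX1*, *HDAC1* and *PIGQ*, for *RNF43* *ELMSAN1*, *CACNB3* and *AL355336.1*, and for *LEF1* *CPQ*, *FA2H* and *MMAA*. The 8 groups share 2 libraries and are ordered mainly by the gap between hypoblast and embryonic gate, so the r is a description. Among the members themselves, *TCF7* with *NKD1* had the highest r, 0.964, although *TCF7* was within 2-fold between the gates. *SP5* with *NKD1* had r = 0.963 and *NKD1* with *LGR5* 0.954, while *AXIN2* with *SP5* had -0.287. The lowest r was -0.758, for *NKD1* with *ZNRF3*. A high r thus says nothing of the size of the gap between the gates.

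In GRCh38.p14 the members lie on 7 chromosomes. *AXIN2* spans chr17:65528563-65561648 and *RNF43* chr17:58352500-58417534 on the same chromosome. *NKD1* spans chr16:50548396-50649249, *ZNRF3* chr22:28883572-29057488 and *LGR5* chr12:71439129-71586310. *LEF1* spans chr4:108047548-108168932, *TCF7* chr5:134108218-134148210 and *SP5* chr2:170715337-170718078.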

How the data were processed

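For 2 single-cell libraries (10x Genomics, 3′ ends) the authors deposited UMI counts for 36601 genes in the cells called by Cell Ranger 6.0.1 against hg38, per the file headers and the submitters' processing notes. The counts were raw and no cell had been removed. D4 held 151712246 UMIs in 10943 cells and D6 150320228 in 11483. Cells with 3430 to 27500 UMIs and at most 10% mitochondrial UMIs were kept. UMIs were summed over the cells of a group and divided by the group's total. Intervals are exact Poisson (levels), exact binomial (shares) and exact conditional binomial (ratios) at 95% and cover counting error only. A gene was measured in a comparison if its pooled level gave at least 5 UMIs in the smaller group, and counts of genes past 2-fold used 0.5 UMIs added to each side. Thinning drew 3430 UMIs from each cell. Scrublet (scanpy 1.11.5) called 353 of 9151 kept cells of D4 doublets (3.86%) and 432 of 10097 of D6 (4.28%). They were left out in 1 alternative only. Ratios, intervals and counts were tested on simulated data. Python 3.11.15, numpy 2.4.6 and scipy 1.17.1 were used.

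The members, gates and gene lists were chosen with earlier results of these data known. All 8 members are named in the comparisons of gates, of days and of positive with negative cells. Of each pathway list at most the 3 genes with most UMIs are named by rule, and of all genes with at least 200 UMIs the 3 nearest in pattern to each member. Promoter windows and gene positions are from RefSeq GRCh38.p14. The 7 bisulfite libraries were not used here.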

Additional observations from a re-analysis of the deposited data

Results flagged for a closer look

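The change of *NKD1*, which encodes a Dishevelled-binding antagonist, between the days went opposite ways in the gates. Its log2 ratio of D6 over D4 was 0.48 in the embryonic gate, from 102 UMIs at D4 and 184 at D6, and -0.23 in the hypoblast gate, from 952 and 711 UMIs. It is listed because the signs differ. With 1 library a day the difference between the gates was not tested.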

How the results depend on the processing

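Each log2 ratio was recomputed with every deposited cell, without doublet calls, with stricter gates, with thinned cells, from the mean of per-cell levels and without mitochondrial and ribosomal protein genes. Of 96 such values for the hypoblast over the embryonic gate 11 left the counting interval, and of 96 for D6 over D4 4 did. *SP5* in the hypoblast over the embryonic gate ran from 4.72 to 5.05 at D4 and from 4.35 to 4.72 at D6, and *LGR5* from 5.82 to 6.78 and from 5.99 to 6.54. For positive over negative cells, with other streak definitions added, 28 of 160 left it, and *SP5* ran from 0.05 to 3.61 at D4 and from 2.20 to 4.31 at D6. *AXIN2* ran from -1.19 to 0.36 and from 0.07 to 1.14. With thinned cells *SP5* at D4 was 0.79 (-1.52 to 2.40), on few UMIs. Thinning moved 44 of 48 shares.

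Counts of genes past the fold depend on the rule. At 1.5-fold in place of 2-fold, 481 genes at D4 and 560 at D6 were higher in positive cells (71 and 109 at 2-fold), 4507 and 4336 in the hypoblast gate (2924 and 2852), and 2468 and 2297 at D6 in the embryonic and hypoblast gate (893 and 1130). Asking for 20 UMIs in the smaller group gave 14 and 21 in positive cells and 377 and 679 between days, and 2 UMIs gave 298 and 370, and 1499 between days in the embryonic gate. Thinned cells gave 67 in positive cells of D6. No paired analysis was possible because each day is 1 library. At D4 *NKD1*, *RNF43*, *LEF1* and *LGR5* had at most 5 UMIs in positive cells. The upper ends of their log2 ratios over negative cells were 2.00, 1.10, 2.63 and 2.29. A change within the intervals was not detectable at this depth.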
